A study of Mus musculus with 8 samples.

Results

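The genes described here are 8 whose proteins detect double-stranded or viral RNA, relay that signal, or are RNA helicases induced beside them: Ddx58 (encoding RIG-I), Ifih1 (MDA5), Dhx58 (LGP2), Mavs, Eif2ak2 (PKR), Ddx60, Helz2 and Znfx1. They were taken by name from a table of 24972 genes, and all 8 were in it and passed the filter on low values that left 13267 genes for testing. RNA sequencing measured them in primary mouse embryonic fibroblasts, cultured from embryos at day 14, passaged 2 times and given no treatment. The 4 genotypes were wild type (WT), heterozygous for Tfam (Tfam+/-), homozygous null for Zbp1 (Zbp1-/-) and both together (Tfam+/-Zbp1-/-), with 2 libraries each. Tfam encodes the protein that packages mitochondrial DNA, and Zbp1 a sensor of nucleic acids in the Z conformation. The sources used here give neither the making of the alleles nor whether replicate libraries derive from different embryos. The p-values therefore measure the spread between these libraries, which may be technical.

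RIG-I and MDA5 bind double-stranded RNA in the cytosol through a helicase core and signal through CARD domains to MAVS, an adaptor in the outer mitochondrial membrane. MAVS in turn activates kinases that switch on type I interferon genes, while LGP2, which has the helicase core but no CARD domains, modulates the other RIG-I-like receptors. PKR is a kinase that double-stranded RNA activates and that then phosphorylates the translation factor eIF2 alpha. Interferon raises transcription of most of these genes through a factor complex that binds a promoter element called the ISRE, so their transcript levels are widely used as a readout of interferon signalling.

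Windows of 250 bases before and 50 bases after RefSeq transcript starts (GRCm38.p6, the assembly also called mm10) were searched on both strands for GAAANNGAAA, the core of the ISRE. Of the 8 genes, 7 matched that table (not Dhx58). In the 250 bases before the start the letters were in Ddx60 alone, against 2.98% of 32851 windows of all genes. Over the whole window they were in Ddx58, Ifih1, Eif2ak2 and Ddx60, against 3.44% of all windows. The shorter form GAAANGAAA, added after the promoters had been read, was in the windows of Ddx58 and Helz2, against 3.17% of all windows. The letters TTCNNNGAA, the core of the GAS element, were found in Eif2ak2 alone, at position -178 from the start, against 8.30% of all windows. The windows of Mavs and Znfx1 held none of the 3. The sites are shown because these genes moved together below. Capitals mark the match, letters run 5′ to 3′ on the strand of the gene, and coordinates are those of the match.
Ddx60, chr8:61928034-61928043, position -53 from the start: tgatgaatgGAAACCGAAActtaaagct
Ddx60, chr8:61928068-61928077, position -19 from the start: agcagaagaGAAACCGAAActatccttc
Ddx58, chr4:40239877-40239885, position -60 from the start: tctaggttcaGAAACGAAActggatccc
Helz2, chr2:181242002-181242010, position 18 after the start: cccaggggcaGAAACGAAActgatcgct
Ifih1, chr2:62646214-62646223, position 33 after the start: aagagaatcGAAACAGAAAccgatctg
Eif2ak2, chr17:78882545-78882554, position 19 after the start: gtccgccggGAAAACGAAAcagaagaga
Ddx60 held 2 copies of the same 10 letters, the second across the outermost RefSeq start of the gene (61928073), and Ddx58 and Helz2 held the same 9. Ddx58 also held GAAANNGAAA on the opposite strand, at position 3 after its start. The 120 bases before the Ddx58 start (chr4:40239826-40239945, minus strand) set its site beside a run rich in C.
Ddx58: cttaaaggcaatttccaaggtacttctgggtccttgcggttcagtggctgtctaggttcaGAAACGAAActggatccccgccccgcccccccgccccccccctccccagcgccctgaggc
A match describes the letters only, and binding was not measured.

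The targeted genes were looked at first. Tfam was at 278 to 424 normalized counts, the authors' scaled read count per gene, in the 4 libraries labelled Tfam+/- and at 471 to 675 in the other 4. In Tfam+/-, Zbp1 was at 64.6 and 69.8, and in the 4 libraries that lack Zbp1 it was at 0.862 to 3.79. WT had 7.34 and 3.19, too low to check the Zbp1-/- label against WT. Values summed to 16752835 to 18303036 per library. All 9 fibroblast markers, Col1a1 and Pdgfra among them, were above 0 in every library, and so were 11 of 11 leukocyte markers. The highest leukocyte marker, Lyz2, was at 1375 to 3445, which overlaps Lum (550 to 3025), the lowest of the 9 fibroblast markers. In WT the fibroblast markers summed to 382448 and 382562, and the leukocyte markers to 4822 and 4772. The other leukocyte markers were at 4.66 to 702. An earlier analysis of these data had found Tfam+/- replicate 1 and Zbp1-/- replicate 2 shifted together. Each was set against its fellow replicate, and over 13267 tested genes these 2 sets of log2 differences had r = 0.70. Results are therefore also given with a term shared by these 2 libraries, which was chosen with the data known and passed the threshold in 65.3% of all genes.

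Transcripts of the 8 genes differed widely in level in WT. Per kilobase of the longest coding transcript, the WT means were 232 ± 16.0 (SD, n = 2) for Eif2ak2, 204 ± 6.79 for Ddx58, 140 ± 6.17 for Mavs and 92.8 ± 1.34 for Znfx1. They were 44.6 ± 2.76 for Helz2, 31.8 ± 3.52 for Ifih1, 9.41 ± 1.54 for Dhx58 and 1.41 ± 0.177 for Ddx60. No neighbours in this order overlapped in their WT libraries. In Tfam+/- the order on this per-length scale was Ddx58 (519 ± 84.3), Eif2ak2 (419 ± 107), Mavs (160 ± 19.2), Znfx1 (144 ± 4.54), Helz2 (138 ± 23.3), Ifih1 (107 ± 31.6), Dhx58 (57.5 ± 10.6) and Ddx60 (11.9 ± 5.79). There the first pair, and the run from Mavs to Ifih1, were not separated from their neighbours beyond the spread of the libraries. The 2 lowest genes rest on few reads. If the value repeated most often in a library, 0.932 to 1.10 normalized counts, is worth 1 read, Ddx60 had about 8.56 and 10.8 reads in WT, and Dhx58 about 20.5 and 27.2.

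**Figure D1:**
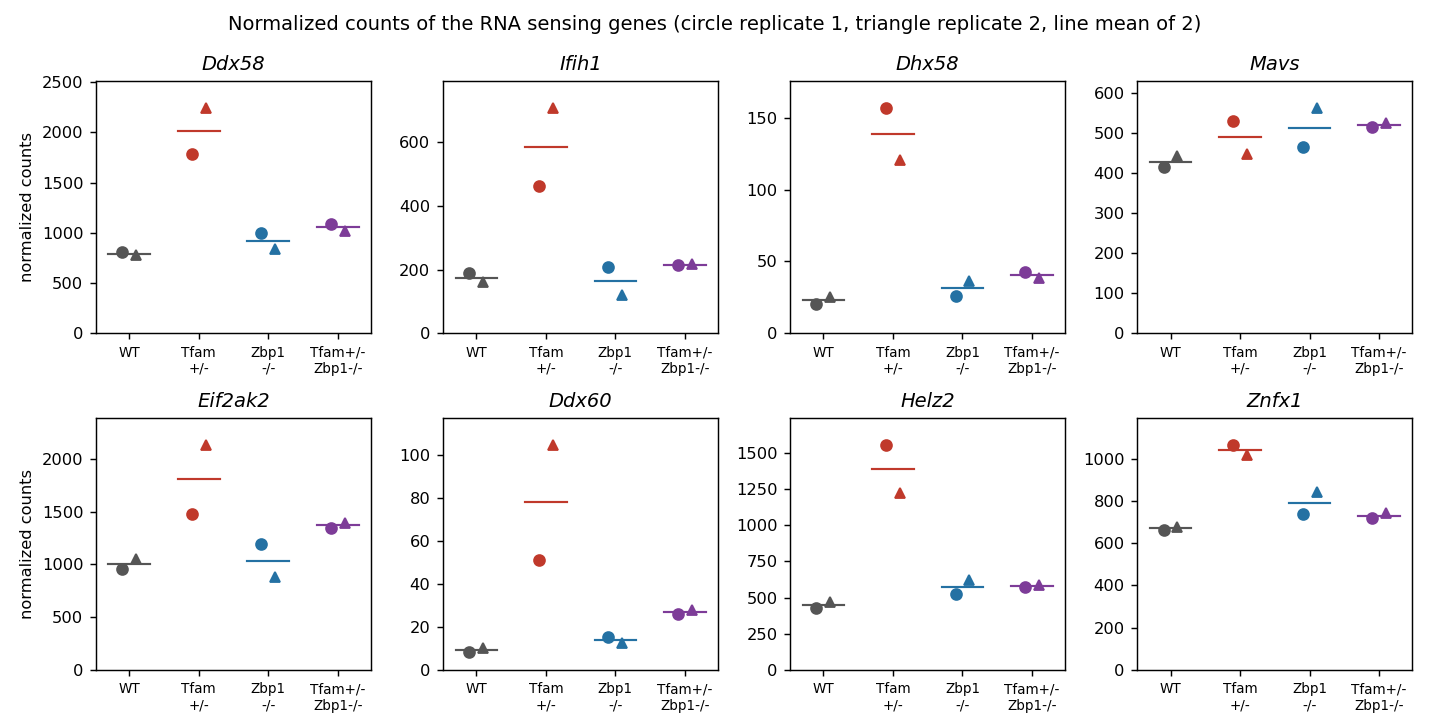
Normalized counts (y axis, linear from 0) of each gene in the 8 libraries, by genotype (x axis). Circles are replicate 1, triangles replicate 2 and lines the mean of 2. Tfam+/- libraries are the highest for every gene except Mavs, which spans 415 to 562 over all 8 libraries.

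The comparison of Tfam+/- with WT set libraries lacking 1 Tfam allele beside WT. Since the origin of the replicates is not given, genotype cannot be told apart from embryo or culture here. Of the 8 genes, 4 rose (Ddx58, Dhx58, Ddx60 and Helz2) and none fell, where 0.565% of all genes tested were called higher and 0.731% in either direction (limma, Benjamini-Hochberg adjusted p under 0.05). The median log2 change of the 8 genes was 1.48, against -0.01 for all genes tested. Both Tfam+/- libraries were above both WT libraries for 8 of 8 genes, which held for 23.3% of all genes tested. Fitted with the shared term, 7 of 8 rose, all but Mavs, against 7.39% of all genes called higher. Summed levels of markers of other cell types were also higher in Tfam+/- than in WT. The 11 leukocyte markers summed to 4822 and 4772 in WT and 6001 and 5565 in Tfam+/-, the 5 endothelial markers to 338 and 356 against 396 and 460, and the 5 epithelial markers to 228 and 236 against 402 and 273. These are ratios of means of 1.21, 1.23 and 1.46, without overlap, and their part in the rises was not tested. In bulk RNA a higher level per cell and a larger share of cells with the transcript cannot be told apart.

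Among the receptors, Ddx58 was at 810 and 773 normalized counts in WT and 1780 and 2242 in Tfam+/-. Its log2 change was 1.33 ± 0.15 (SE; limma, adjusted p 0.016), a ratio of means of 2.54. Ifih1 was at 188 and 160 in WT and 464 and 708 in Tfam+/-. The groups did not overlap, but the 2 Tfam+/- libraries lay far apart, and the log2 change of 1.72 ± 0.30 did not pass the threshold (adjusted p 0.078). With the shared term, which was chosen with the data known, it was 2.07 (adjusted p 1.0e-10). That fit called 7.39% of all genes higher. Dhx58, the lowest receptor transcript, was at 20.1 and 25.3 in WT and 157 and 121 in Tfam+/-. Its mean was 6.11 times that of WT, and its log2 change was 2.56 ± 0.25 (adjusted p 0.010).

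Mavs, the adaptor of RIG-I and MDA5, was at 415 and 442 in WT and 530 and 447 in Tfam+/-. The higher WT library and the lower Tfam+/- library were nearly level. The log2 change was 0.19 ± 0.14 (adjusted p 0.57). Its 95% interval, -0.15 to 0.53, spans ratios of 0.898 to 1.44. In the fit with the shared term the change was 0.05 (adjusted p 0.69).

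Eif2ak2, which encodes PKR, was at 954 and 1051 in WT and 1478 and 2134 in Tfam+/-. Every Tfam+/- value was above every WT value, but the replicates differed and the log2 change of 0.83 ± 0.21 did not pass the threshold (adjusted p 0.27). It was 1.07 with the shared term (adjusted p 6.1e-11), in a fit that called 7.39% of all genes higher. The transcribed pseudogene Gm6548, as placed in GENCODE, overlaps the RefSeq span of Eif2ak2 by 1165 bases, and was itself at 1155 to 1526. In GENCODE the exons of these 2 genes share 0 bases, while 174 exon bases of Eif2ak2 lie opposite the antisense gene Gm26637. Whether counting divided reads between Eif2ak2 and either gene was not tested.

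Ddx60, a DExD/H-box helicase reported to act with the RIG-I-like receptors, was at 8.39 and 10.0 in WT and 51.3 and 105 in Tfam+/-. Its log2 change of 2.87 ± 0.36 was the largest of the 8 (adjusted p 0.023). Its Tfam+/- libraries were also the farthest apart, replicate 1 minus replicate 2 being -1.02 on the log2 scale. Helz2, a helicase known as a nuclear receptor coactivator, was at 431 and 470 in WT and 1559 and 1226 in Tfam+/-. Its change of 1.62 ± 0.15 had the smallest adjusted p of the 8 (0.0088). Znfx1, a helicase with a zinc finger domain that can bind viral RNA, was at 663 and 677 in WT and 1066 and 1019 in Tfam+/-. These values were tight within each genotype, but the change of 0.64 ± 0.11 did not pass the threshold (adjusted p 0.078). It did with the shared term (0.57, adjusted p 1.3e-06), where 7.39% of all genes were called higher.

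The calls in Tfam+/- against WT rest on few libraries. With either WT library left out (replicate 1, then 2), limma called 0 of the 8 and 7 had an unadjusted p under 0.05 each time, while the log2 changes stayed near their values: Ddx58 at 1.37 and 1.30, Dhx58 at 2.40 and 2.72, Ddx60 at 2.75 and 2.99, and Helz2 at 1.55 and 1.68. Without Tfam+/-Zbp1-/- replicate 1, which enters only the estimate of spread, 2 were called, and 1 without replicate 2. A fit of these 2 genotypes alone called Dhx58 only, and 0.211% of all genes.

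**Figure D2:**
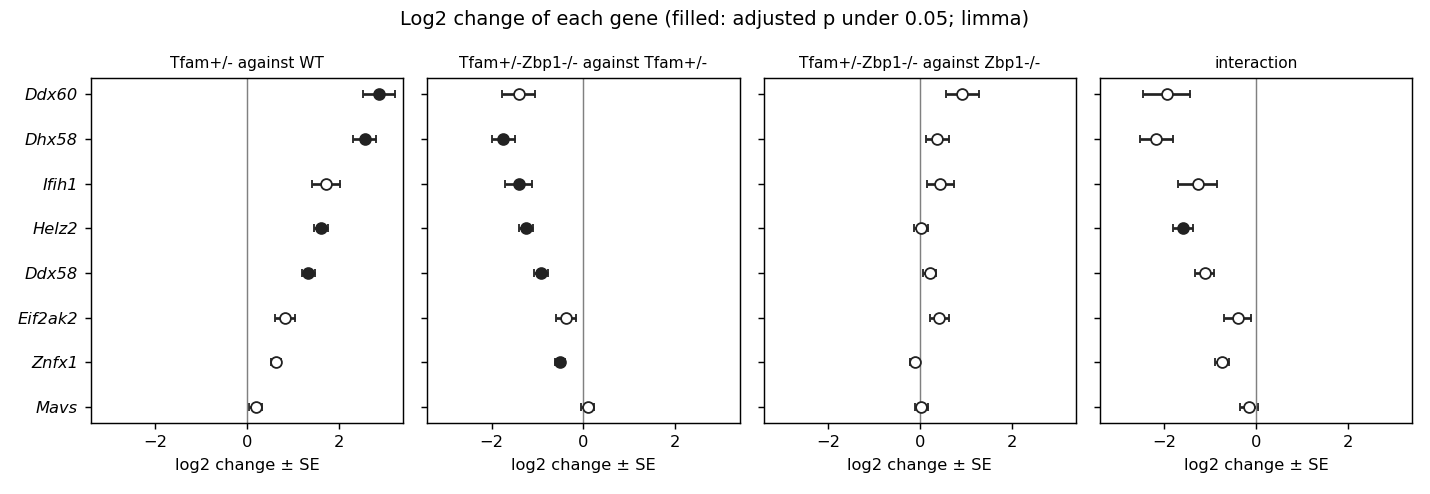
Log2 change (x axis) with its standard error for each gene (y axis, ordered by the change in Tfam+/- against WT) in 3 comparisons and the interaction. Filled points passed an adjusted p of 0.05 in limma. Changes run from 0.19 for Mavs to 2.87 for Ddx60 in the first panel, and only Helz2 is filled in the interaction.

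The comparison of Tfam+/-Zbp1-/- with Tfam+/- set loss of Zbp1 on the background of a single Tfam allele. Of the 8 genes, 5 fell (Ddx58, Ifih1, Dhx58, Helz2 and Znfx1) and none rose, where 2.32% of all genes tested were called lower and 5.64% in either direction. The median log2 change was -1.09, against 0.14 for all genes tested. Both Tfam+/-Zbp1-/- libraries were below both Tfam+/- libraries for 7 of 8 genes, which held for 13.5% of all genes tested. The shared term gave 7 of 8 falls, against 10.2% of all genes, and Mavs was called higher at 0.23 (adjusted p 0.017). That fit called 4699 of 13267 genes higher. The median of all genes in that fit was 0.13.

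Dhx58 had the largest fall, to 42.4 and 38.3 normalized counts from 157 and 121, a log2 change of -1.75 ± 0.25 (adjusted p 0.012). Ifih1 was at 215 and 217 in Tfam+/-Zbp1-/-, against 464 and 708, and fell by 1.41 ± 0.30 (adjusted p 0.045). Ddx58 was at 1091 and 1017, and fell by 0.92 ± 0.15 (adjusted p 0.018). All 3 receptor transcripts were thus nearly level between the 2 double mutant libraries and well below Tfam+/-. Helz2, at 575 and 584, fell by 1.25 ± 0.15 (adjusted p 0.0072), and Znfx1, at 717 and 742, by 0.51 ± 0.11 (adjusted p 0.046). Ddx60 was at 26.0 and 27.99 (-1.41 ± 0.36, adjusted p 0.074) and Eif2ak2 at 1343 and 1392 (-0.38 ± 0.21, adjusted p 0.35). Neither passed the threshold, although their libraries did not overlap with those of Tfam+/-. Mavs was at 515 and 526, with a change of 0.10 ± 0.14 (adjusted p 0.72), which was -0.03 after the libraries were rescaled by the trimmed mean of M-values.

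These 5 calls also rest on single libraries. Without Tfam+/-Zbp1-/- replicate 1 or replicate 2, limma called 0 of the 8 (6 at an unadjusted p under 0.05 each time), with log2 changes of -0.97 and -0.87 for Ddx58, -1.40 and -1.41 for Ifih1, -1.82 and -1.67 for Dhx58, -1.24 and -1.26 for Helz2, and -0.49 and -0.54 for Znfx1. Without WT replicate 1 or replicate 2 only Dhx58 and Helz2 were called. Without Tfam+/- replicate 2 the count was 3. Ifih1 and Znfx1, the nearest to the threshold, also lost their calls with no filter (adjusted p 0.057 and 0.055) and with a prior without trend (0.053 and 0.058). The summed level of the 11 leukocyte markers moved in the same comparison, from 6001 and 5565 in Tfam+/- to 2461 and 2436 in Tfam+/-Zbp1-/-, a ratio of means of 0.423. The epithelial sum went from 402 and 273 to 120 and 138, a ratio of 0.382, and the endothelial sum from 396 and 460 to 337 and 318, a ratio of 0.765. The part of these sums in the falls was not tested. Against WT, the leukocyte sum was also lower in Zbp1-/- (ratio of means 0.600) and in Tfam+/-Zbp1-/- (0.510). The median log2 changes of the 8 genes in those comparisons were 0.24 and 0.39. The epithelial ratios there were 1.04 and 0.556, and the endothelial ratios 0.841 and 0.943. Over all 8 libraries, Krt8 (55.1 to 169) and Krt18 (57.0 to 230) carried the epithelial sum, and Epcam, Cdh1 and Krt5 were at 0 to 6.34. Kdr, Tek and Emcn carried the endothelial sum, and Pecam1 and Cdh5 were at 0 to 7.48.

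Levels in Tfam+/-Zbp1-/- were then set against WT. Both libraries were above both WT libraries for 8 of 8 genes, but this held for 58.8% of all genes tested, so the count says little about these genes. limma called 0 of 8 (3 at an unadjusted p under 0.05), where 1.38% of all genes were called. The log2 changes ran from 0.12 ± 0.11 for Znfx1 to 1.46 ± 0.36 for Ddx60, with 0.81 ± 0.25 for Dhx58, 0.45 ± 0.21 for Eif2ak2, 0.41 ± 0.15 for Ddx58, 0.36 ± 0.15 for Helz2, 0.31 ± 0.30 for Ifih1 and 0.28 ± 0.14 for Mavs. The median was 0.39, against 0.12 for all genes tested. Fitted with the shared term, 7 of 8 were called, all but Znfx1, against 42.5% of all genes. A fit of only WT and Tfam+/-Zbp1-/-, the 2 genotypes with the closest replicates, also called all but Znfx1, and 44.7% of all genes.

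None of the 8 passed the threshold where Zbp1 alone was lost. In Zbp1-/- against WT, limma called 0 of 8 (0 at an unadjusted p under 0.05), where 1.06% of all genes were called. Both Zbp1-/- libraries were above both WT libraries for 6 of the 8, against 42.1% of all genes. The log2 changes ran from -0.13 ± 0.30 for Ifih1 to 0.54 ± 0.36 for Ddx60, with a median of 0.24 against 0.11 for all genes. Ifih1, at 208 and 120, straddled the WT values, as did Eif2ak2, at 1189 and 875. The fit with the shared term called 4 of 8 higher (Ddx58, Eif2ak2, Helz2 and Znfx1). Over all genes it called 3787 of 13267 higher, and 35.6% in either direction. Ifih1 was then at 0.22 (adjusted p 0.14), the opposite sign. Eif2ak2 went from 0.03 to -0.09 after rescaling.

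The comparison of Tfam+/-Zbp1-/- with Zbp1-/- set libraries with and without the loss of 1 Tfam allele side by side, all without Zbp1. limma called 0 of 8 (1 at an unadjusted p under 0.05, Ddx60), where 0.415% of all genes were called. The median log2 change was 0.30, against 0.02 for all genes tested. Both double mutant libraries were above both Zbp1-/- libraries for 5 of 8 genes, which held for 3478 of 13267 genes tested. Zbp1-/- libraries had Ddx60 at 15.0 and 12.6, against 26.0 and 27.99 in the double mutant, with a log2 change of 0.92 ± 0.36 (adjusted p 0.37). The others lay between -0.11 ± 0.11 for Znfx1 and 0.44 ± 0.30 for Ifih1, with 0.21 ± 0.15 for Ddx58, 0.38 ± 0.25 for Dhx58 and 0.42 ± 0.21 for Eif2ak2. With the shared term Eif2ak2 was called (0.18, adjusted p 0.024), against 23.8% of all genes.

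The interaction takes the Tfam+/- difference found without Zbp1 and subtracts the same difference found with Zbp1. A negative value is a smaller rise, or a fall, where Zbp1 was missing. The interaction was below 0 for 8 of 8 genes, with a median of -1.20 against 0.00 for all genes tested. limma called 1 of 8, Helz2 (-1.59 ± 0.22, adjusted p 0.038), where 0.445% of all genes were called below 0 and 0.663% in either direction. Helz2 lost this call without any 1 library other than Tfam+/- replicate 2, at -1.72 to -1.42. The estimates for Dhx58 (-2.18 ± 0.36, adjusted p 0.062), Ddx58 (-1.12 ± 0.21, adjusted p 0.086) and Znfx1 (-0.75 ± 0.16, adjusted p 0.11) did not pass the threshold. Nor did those for Ddx60 (-1.95 ± 0.51, adjusted p 0.17), Ifih1 (-1.28 ± 0.42, adjusted p 0.26), Eif2ak2 (-0.40 ± 0.30, adjusted p 0.41) and Mavs (-0.16 ± 0.20, adjusted p 0.61). Under the shared term 7 of 8 were called below 0, against 8.43% of all genes, from -0.62 for Znfx1 to -2.58 for Ddx60. Mavs was then at 0.10 (adjusted p 0.61). That fit leaves the interaction resting on the other 6 libraries.

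The 8 genes did not deviate alike in the 2 shifted libraries. Between Tfam+/- replicate 1 and replicate 2, the log2 difference was negative for Ddx58 (-0.33), Ifih1 (-0.61), Eif2ak2 (-0.53) and Ddx60 (-1.02). It was positive for Dhx58 (0.37), Mavs (0.25), Helz2 (0.35) and Znfx1 (0.06). Between Zbp1-/- replicate 2 and replicate 1 the same 4 were negative (-0.25, -0.78, -0.44 and -0.24) and the same 4 positive (0.49, 0.28, 0.25 and 0.19). The 4 with negative shifts had transcripts of 40.2% to 46.6% GC, and the 4 with positive shifts of 53.9% to 56.1%.

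**Figure D3:**
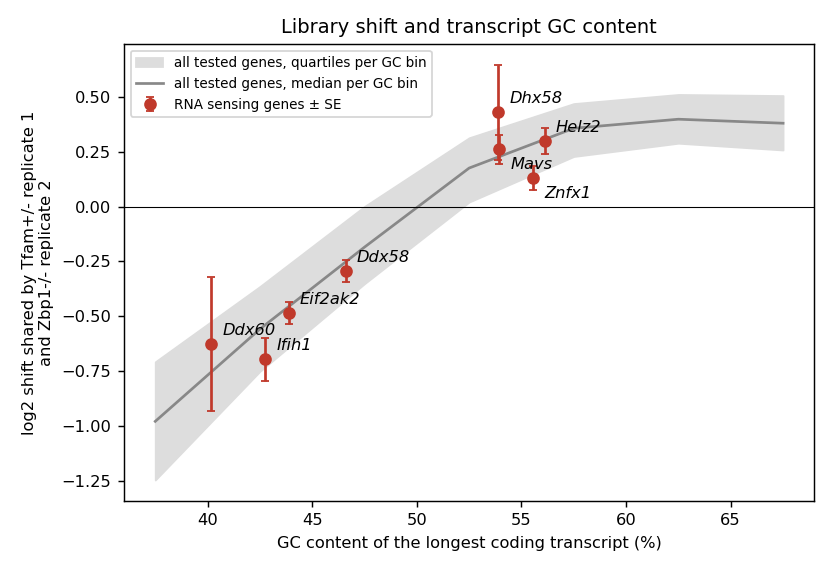
Log2 shift shared by Tfam+/- replicate 1 and Zbp1-/- replicate 2 (y axis; points are the 8 genes with SE) against GC content of the longest coding transcript (x axis). The grey line and band are the median and quartiles of all tested genes in GC bins of at least 20 genes. Ifih1 (42.8% GC, -0.70) and Helz2 (56.1% GC, 0.30) lie near the line at either end.

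Across the 12733 tested genes with a GENCODE coding transcript, this shared shift correlated with transcript GC content at r = 0.78, a description across genes, which are not replicates. Its median was -0.56 for genes of 40% to 45% GC and 0.36 for those of 55% to 60%. The change in Tfam+/- against WT, in the fit without the term, correlated with GC content at r = 0.46 over the same genes. The shift passed the threshold for Eif2ak2 (-0.49, adjusted p 7.1e-08), Ifih1 (-0.70, adjusted p 5.3e-06), Ddx58 (-0.29, adjusted p 3.6e-05), Helz2 (0.30, adjusted p 2.1e-04), Mavs (0.26, adjusted p 0.0018) and Znfx1 (0.13, adjusted p 0.041). It did not for Dhx58 (0.43, adjusted p 0.090) or Ddx60 (-0.63, adjusted p 0.080). With the term fitted, the changes in Tfam+/- against WT were larger for the genes of low GC (Ifih1 2.07, Eif2ak2 1.07, Ddx60 3.18, Ddx58 1.48). They were smaller for those of high GC (Dhx58 2.34, Helz2 1.47, Znfx1 0.57, Mavs 0.05). Neither batch nor RNA quality is in the labels, and the source of the shift was not tested.

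Over the 8 libraries, log2 levels of the 7 genes other than Mavs followed each other, with Pearson r of 0.63 (Eif2ak2 and Znfx1) to 0.99 (Dhx58 and Helz2) over 21 pairs. Mavs correlated with them at -0.14 to 0.36. These values describe 8 libraries that share genotypes and the library shift. The genes most like each member by this r, other members left out, were then listed. For Ddx58 they included Trim30d and Gbp7 (0.99 each), and for Ifih1 they were Dtx3l, Trim21 and Gbp7 (0.98 each). Dhx58 was closest to Isg15, Irf7 and Bst2 (0.99 each), and Helz2 to Bst2 (1.00), Irf7 and Stat2 (0.99 each). Eif2ak2 was closest to Trim12c (0.97), Slfn9 and Ptprb (0.96 each), and the genes closest to Ddx60 included Ptprb and Rab3c (0.98 each). Znfx1 was closest to Ifi27, Parp10 (0.99 each) and Lgals3bp (0.98). Mavs instead followed Ppp1ca, Mta3 and Cyb561d2 (0.99 each), of which Ppp1ca encodes a phosphatase catalytic subunit.

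Of 28 regulators and relays of MAVS signalling, 27 were tested, and 2 rose in Tfam+/- against WT: Irf7, a transcription factor of interferon genes, and Trim25, a ubiquitin ligase of RIG-I. Over all genes tested, 0.565% were called higher in this comparison and 0.731% in either direction. The median of the 27 was 0.05, against -0.01 for all genes tested. The fit with the shared term called 4 of the 27 higher, Smurf1 and Traf3 beside Irf7 and Trim25. Over all genes it called 7.39% higher and 15.6% in either direction. In Tfam+/-Zbp1-/- against Tfam+/- that fit called 13 of the 27, 7 higher and 6 lower, where 45.6% of all genes were called. Irf7 was at 29.0 and 44.9 normalized counts in WT and 475 and 347 in Tfam+/-, a log2 change of 3.46 ± 0.29 (adjusted p 0.0051). Trim25 was at 1067 and 1194 in WT and 2087 and 2136 in Tfam+/-, a change of 0.90 ± 0.10 (adjusted p 0.017). Both fell in Tfam+/-Zbp1-/- against Tfam+/- (-2.43 ± 0.29 and -0.83 ± 0.10, adjusted p 0.0064 and 0.0072), and both were called in the interaction (-3.19 and -1.33). No other gene of the 27 was called in either, where 5.64% and 0.663% of all genes were called. In Zbp1-/- against WT, Irf7 was at 0.76 ± 0.29 (adjusted p 0.23) and Trim25 at 0.50 ± 0.10 (adjusted p 0.087). From Zbp1-/- to Tfam+/-Zbp1-/- they changed by 0.27 ± 0.29 (adjusted p 0.67) and -0.43 ± 0.10 (adjusted p 0.18). The Tfam+/- difference of Trim25 was thus below 0 without Zbp1. Tbk1, the kinase downstream of MAVS, was at 636 to 796 over all 8 libraries, and Irf3, its substrate, at 514 to 771. The shifted libraries, Tfam+/- replicate 1 and Zbp1-/- replicate 2, were the lowest for Tbk1 (640 and 636) and the highest for Irf3 (737 and 771). Ifnb1, the interferon beta gene, was listed at 0 in all 8.

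Of 22 genes of the eIF2 kinase circuit, which hold the other eIF2 kinases, eIF2 and eIF2B subunits, regulators of PKR and ATF4 targets, 22 were tested. limma called 0 in Tfam+/- against WT (0 at an unadjusted p under 0.05), with a median of -0.00 and a range of -0.41 to 0.35. Over all genes 0.731% were called in this comparison, so 0 calls among 22 say little about these genes. Atf4 had a log2 change of 0.13 ± 0.16 (adjusted p 0.68) and Ddit3 of 0.23 ± 0.23 (adjusted p 0.61). With the shared term 3 were called in this comparison (Eif2ak3, Eif2s3x and Trib3), over a range of -0.23 to 0.16 for the whole list, where 15.6% of all genes were called. In Tfam+/-Zbp1-/- against Tfam+/- limma called 0 (2 at an unadjusted p under 0.05), where 5.64% of all genes were called. With the shared term it called 6, where 45.6% of all genes were called.

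Other helicases of the same families were set beside the members. Of 51 other DExD/H-box helicases, 49 were tested, and limma called 0 in Tfam+/- against WT (2 at an unadjusted p under 0.05), with changes of -0.66 to 0.68 and a median of 0.05. The 2 were Ddx24 (0.68 ± 0.12, adjusted p 0.088) and Ddx39 (0.38 ± 0.14, adjusted p 0.51), named here after their values were seen. In Tfam+/-Zbp1-/- against Tfam+/- they were at -0.52 ± 0.12 (adjusted p 0.062) and -0.21 ± 0.14 (adjusted p 0.41). Dicer1, whose helicase domain is related to that of the RIG-I-like receptors, had a log2 change of -0.19 ± 0.16 (adjusted p 0.59). Of 9 other UPF1-like helicases, the family of Helz2 and Znfx1, 8 were tested and limma called 0 (1 at an unadjusted p under 0.05). That gene was Mov10, at 0.73 ± 0.18 (adjusted p 0.22), named here after its value was seen. Over all genes 0.731% were called in this comparison, so 0 calls among 49 or 8 say little about these helicases. In Tfam+/-Zbp1-/- against Tfam+/- limma called 0 of the 49 and 0 of the 8 (4 and 1 at an unadjusted p under 0.05), with medians of 0.11 and 0.13. Over all genes tested, 5.64% were called there and the median was 0.14. The shared term gave 6 calls among the 49 and 1 among the 8, Mov10, in Tfam+/- against WT, where 15.6% of all genes were called. It gave 19 among the 49 and 3 among the 8 in Tfam+/-Zbp1-/- against Tfam+/-, where 45.6% of all genes were called.

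**Figure D4:**
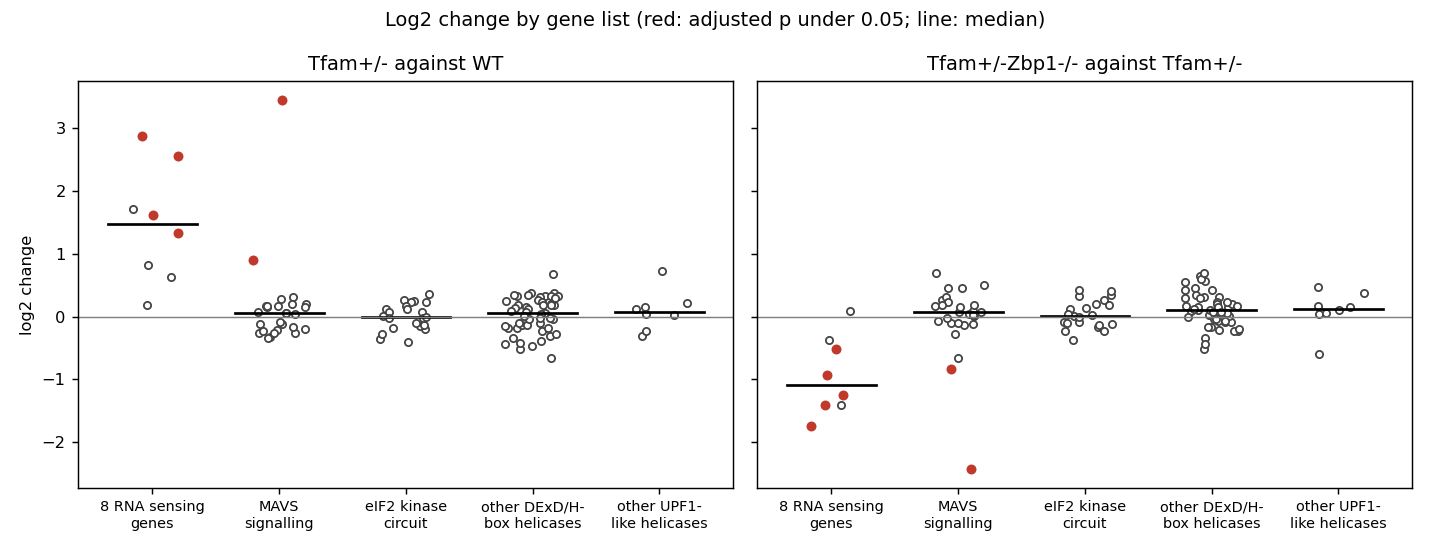
Log2 change (y axis) of each tested gene by list (x axis) in Tfam+/- against WT and Tfam+/-Zbp1-/- against Tfam+/-. Red points passed an adjusted p of 0.05 in limma and black lines are medians. The medians of the 8 RNA sensing genes are 1.48 and -1.09, and the 2 red points of MAVS signalling are Irf7 and Trim25.

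The genes lie at separate loci on mm10, with RefSeq spans (GRCm38.p6, 1-based). Ifih1 (62595618 to 62646255), Mavs (131234063 to 131248025), Znfx1 (167035790 to 167063015) and Helz2 (181227615 to 181242058) are on chromosome 2. Ddx58 is on chromosome 4 (40203777 to 40239825), Ddx60 on chromosome 8 (61928073 to 62037704), Dhx58 on chromosome 11 (100694884 to 100704271) and Eif2ak2 on chromosome 17 (78850504 to 78882572). In GENCODE, exons of Znfx1 share 82 bases with the antisense gene Zfas1, which was at 514 to 808, and exons of Dhx58 share 141 bases with the antisense Dhx58os. Whether counting used strand is not stated in the sources used here, so reads in these shared bases cannot be told apart.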

How the data were processed

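Total RNA from 8 fibroblast libraries was sequenced. The submitters' processing notes name STAR 2.6.1a and Salmon, and the build mm10. The series' design text adds RefSeq genes and a BaseSpace alignment and differential expression workflow. What the authors deposited are normalized counts, here treated as a signal since they are not whole numbers. Their scaling and any use of strand are not stated there. In each library 1 value recurred in 330 to 406 genes, but only 22.2% to 34.9% of low values lay within 0.01 of its multiples, so whole reads were not recovered and no count model was run.

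Genes with a mean of at least 10 were tested on log2(normalized count + 1), a scale that understates changes of low genes. limma 3.58.1 in R 4.3.3 fitted 4 genotypes together (4 residual, 2.77 prior degrees of freedom; mean-variance trend; two-sided). P-values were adjusted by Benjamini-Hochberg over 13267 genes and called under 0.05. An exact permutation test of 2 against 2 cannot give a p below 0.333. The fit was tested on simulated data without a shift shared between libraries, so that test does not cover the shift found here. The fit with the shared term had 3 residual and 15.1 prior degrees of freedom.

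Named genes were all 8 members, called genes of 4 lists, and the 3 genes most alike by Pearson r, of which 1 is not reported here. The members, lists, rules and the shared term were chosen with earlier results of these data known. Sequences are from RefSeq (GRCm38.p6), and transcript lengths and GC content from GENCODE M21, whose gene models may differ from those the authors counted. Irf3, Smurf1, Traf3, Tbk1, Ifnb1, Atf4, Ddit3, Eif2ak3, Eif2s3x, Trib3, Dicer1, Ddx24, Ddx39 and Mov10 were named after their values were seen. Refits left out each library in turn, used the 6 libraries without the shared shift, blocked on replicate number, or took only the compared genotypes. Others dropped the trend, changed the pseudocount to 5 or 0.1, removed the filter or raised it to 50, or rescaled libraries with trimmed means (TMM; 30% of ratios and 5% of means trimmed).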

Additional observations from a re-analysis of the deposited data

Results flagged for a closer look

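In the main fit, the Tfam+/- difference of Helz2 was not the same with and without Zbp1, by a test of the difference itself. The interaction was -1.59 on the log2 scale (limma, adjusted p 0.038). This call was lost with no filter (adjusted p 0.054), a prior without trend (0.051) and replicate number as a block (0.16). The estimate stayed at -1.77 to -1.42 as each library was left out, but most of those fits lost the call. The change was 1.62 ± 0.15 (SE) from WT to Tfam+/- and 0.02 ± 0.15 from Zbp1-/- to Tfam+/-Zbp1-/-, with 2 libraries in each genotype.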

How the results depend on the processing

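Of the 8 genes, limma called 4 in Tfam+/- against WT, 5 in Tfam+/-Zbp1-/- against Tfam+/-, 1 in the interaction and 0 in the other 3 comparisons. Leaving out each library in turn gave 0 to 5, 0 to 5, 0 to 1 and 0 to 0. Where this leaves a genotype with 1 library, that library is assumed to vary like the others. The shared term gave 7 calls in Tfam+/- against WT, 4 in Zbp1-/- against WT and 7 in the interaction. For the double mutant it gave 7 against WT, 8 against Tfam+/- and 1 against Zbp1-/-. The other 6 libraries gave the same counts except 3 in Zbp1-/- against WT. These 2 fits call far more genes of every kind. No filter gave 3 in Tfam+/-Zbp1-/- against Tfam+/- and 0 in the interaction, as did a prior without trend. Fits restricted to 2 genotypes gave 1 in Tfam+/- against WT, 3 in Tfam+/-Zbp1-/- against Tfam+/- and 7 in Tfam+/-Zbp1-/- against WT. The causes were not tested. Both other pseudocounts, rescaling and a mean of at least 50 left all 6 counts within 1.5 times, although Ddx60 is not tested at that mean. Dhx58 passes that filter only through Tfam+/- (mean of 139, against 22.7 to 40.4 in the other genotypes). With it, Ifih1 lost its call in Tfam+/-Zbp1-/- against Tfam+/- (limma, adjusted p 0.0505).

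The replicate number as a block gave 0 in Tfam+/- against WT, 2 in Tfam+/-Zbp1-/- against Tfam+/- and 0 in the interaction. Between genotypes, the differences of replicate 1 from replicate 2 had r of -0.70 to 0.06. The -0.70, between Tfam+/- and Zbp1-/-, is the r of the 2 shifted libraries, its sign turned since their numbers differ. WT and Tfam+/-Zbp1-/-, which hold no shifted library, had r = -0.37. These values cannot decide whether the numbers mark a shared origin, and the main fit did not pair the libraries.

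Among single genes, 386 values kept their direction and side of the threshold under alternatives other than leaving out a library, 54 gained a call, 20 lost one and 6 changed sign. When a library was left out these were 333, 3, 42 and 6. The signs that changed were all of uncalled genes. In Zbp1-/- against WT, Ifih1 was 0.22 when the shared term was fitted, 0.26 when those 2 libraries were dropped, and ranged over -0.52 to 0.26 as libraries were left out. Eif2ak2 was -0.087 after rescaling (range -0.19 to 0.25). In Tfam+/-Zbp1-/- against Tfam+/-, Mavs was -0.030 after rescaling (range -0.027 to 0.22). Against Zbp1-/- the ranges were -0.11 to 0.17 for Mavs and -0.10 to 0.15 for Helz2. The interaction of Mavs was 0.10 in both fits that set the shifted libraries apart. Rescaling moved the median of all genes from 0.11 to -0.01 in Zbp1-/- against WT, from 0.12 to 0.00 in Tfam+/-Zbp1-/- against WT and from 0.14 to 0.02 against Tfam+/-. Depth limits Ddx60 and Dhx58 most.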
